A study of Mus musculus with 8 samples.

Results

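The glucocorticoid receptor gene Nr3c1 and 8 genes it is known to control were followed in sorted brain microglia: Fkbp5, Tsc22d3, Sgk1, Zbtb16, Klf9, Errfi1, Pdk4 and Ddit4. They were taken by name from the deposited table, and all 9 were among its 56832 rows. Of these 9 genes, 7 reached the mean of 10 normalized counts that was needed for a test, as did 14428 genes in all. Zbtb16 and Pdk4 did not reach it and are described by their values alone.

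The RNA-seq libraries came from male 5xFAD mice described as young adults, a line that carries mutant human amyloid precursor and presenilin transgenes under a neuronal promoter and forms amyloid plaques. The 4 libraries of the ethanol group came from mice given intraperitoneal ethanol as a 20% solution at 3 g/kg, and the 4 libraries of the saline group from mice given saline. In each group injections were given on 5 days per week for 4 weeks and were followed by 2 weeks without them, so every library was collected after withdrawal. Both groups carry the transgenes, and microglia of mice without them were not analysed here. The comparison asks whether this exposure altered microglial gene expression. Titles number the samples 1 to 4 in each group without stating whether a number stands for a single mouse, so p-values measure the spread between these libraries, which may be partly technical. In bulk RNA, a change in the number of cells of a type and a change in RNA per cell cannot be told apart.

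Glucocorticoids, chiefly corticosterone in mice, are steroid hormones of the adrenal cortex that follow the time of day and rise with stress, and ethanol intake is known to activate their release. The receptor waits in the cytosol bound to chaperones, enters the nucleus when it binds hormone, and raises or lowers transcription at response elements in DNA. In microglia and other macrophages it is known for restraining inflammatory gene expression. Among its targets, Fkbp5 and Tsc22d3 feed back on hormone and inflammatory signalling, Sgk1 is a kinase, Zbtb16 and Klf9 are transcription factors, and Errfi1, Pdk4 and Ddit4 act on growth factor, fuel and mTOR signalling. Several of them also answer other signals, such as insulin, hypoxia, growth factors and the circadian clock.

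Promoter windows were available in RefSeq (GRCm38.p6) for 7 of the 9 genes, as 15 windows of 300 bases that run from 250 bases before an annotated transcript start to 50 after it. They are shown for Sgk1, Ddit4, Fkbp5 and Tsc22d3, the 4 targets that make up the 3 most closely related pairs over the libraries. Of the 6 windows of Sgk1 and the 3 of Tsc22d3, the one printed was picked because it holds the receptor's motif or the most of it, while 3 windows of Sgk1 and 2 of Tsc22d3 hold none of it. Each window is written from 5′ to 3′ on the gene's strand, and capitals mark AGAACA or TGTTCT, the arms of the receptor's palindromic response element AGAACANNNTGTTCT.
Sgk1, chr10:21993640-21993939, plus strand: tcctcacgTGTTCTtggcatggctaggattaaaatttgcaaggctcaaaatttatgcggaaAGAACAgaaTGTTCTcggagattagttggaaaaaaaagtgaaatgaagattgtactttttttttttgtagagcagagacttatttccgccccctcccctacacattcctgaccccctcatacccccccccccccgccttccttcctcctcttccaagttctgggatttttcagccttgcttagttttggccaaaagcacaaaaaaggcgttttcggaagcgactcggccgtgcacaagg
Ddit4, chr10:59951721-59952020, minus strand: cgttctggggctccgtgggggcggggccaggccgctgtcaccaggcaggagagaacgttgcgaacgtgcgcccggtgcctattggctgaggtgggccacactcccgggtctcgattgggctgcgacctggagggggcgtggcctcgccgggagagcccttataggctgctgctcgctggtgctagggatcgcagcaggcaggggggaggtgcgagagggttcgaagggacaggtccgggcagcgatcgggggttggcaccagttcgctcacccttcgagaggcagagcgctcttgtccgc
Fkbp5, chr17:28486100-28486399, minus strand: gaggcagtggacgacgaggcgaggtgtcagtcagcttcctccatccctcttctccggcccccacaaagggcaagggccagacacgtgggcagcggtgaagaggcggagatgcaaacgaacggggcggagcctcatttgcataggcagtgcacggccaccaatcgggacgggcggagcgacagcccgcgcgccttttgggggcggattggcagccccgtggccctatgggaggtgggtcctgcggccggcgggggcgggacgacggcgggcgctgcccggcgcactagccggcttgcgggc
Tsc22d3, chrX:140600473-140600772, minus strand: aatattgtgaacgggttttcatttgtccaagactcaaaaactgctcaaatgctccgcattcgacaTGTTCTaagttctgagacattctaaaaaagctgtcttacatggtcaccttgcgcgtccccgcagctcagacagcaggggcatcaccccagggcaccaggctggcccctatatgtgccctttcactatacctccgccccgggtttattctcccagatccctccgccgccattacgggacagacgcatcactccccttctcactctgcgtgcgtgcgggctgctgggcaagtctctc

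The Sgk1 window holds the whole palindrome, which begins 189 bases before that transcript start, and another single arm before it. Over all 32851 windows in the table, 3 windows (0.00913%) hold the palindrome on either strand, and 6233 windows (19.0%) hold at least 1 arm on either strand, palindromes included. The Tsc22d3 window shown holds 1 arm, 185 bases before its start. The windows shown for Ddit4 and Fkbp5 hold neither, which says only that these letters are not in these windows. Of the 15 windows of these genes, 4 hold an arm, of which 3 belong to Sgk1 and 1 to Tsc22d3. The counts are per gene and do not show which start was used.

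The libraries had the profile of microglia in both groups, and other cells were scarce. Depth ran between 14271351 and 17231301 assigned reads per library. All 10 microglial markers were tested genes, and their sum was 5.02 to 5.23% of the normalized counts in ethanol libraries and 4.77 to 5.05% in saline libraries. All 9 neutrophil markers were detected, at 0.0164 to 0.0681% in ethanol and 0.0176 to 0.0933% in saline libraries. The 8 border macrophage markers made up 0.00543 to 0.00880% in ethanol and 0.00345 to 0.0171% in saline, and the 6 monocyte markers 0.00201 to 0.00494% in ethanol and 0.00246 to 0.00755% in saline. The 8 astrocyte markers made up 0.0408 to 0.0588% in ethanol and 0.0443 to 0.0553% in saline. The 12 lymphocyte markers made up 0.00848 to 0.0110% in ethanol and 0.00896 to 0.0119% in saline, and Cd3e, Cd3d, Ms4a1 and Ncr1 had no read in any library. The 8 oligodendrocyte markers stayed below the astrocyte markers in every library, at 0.0185 to 0.0210% in ethanol and 0.0189 to 0.0211% in saline. Neuron markers made up 0.00102 to 0.00191% in ethanol and 0.000782 to 0.00189% in saline. Endothelial and mural markers made up 0.00371 to 0.00450% in ethanol and 0.00358 to 0.00422% in saline, with Rgs5 and Vtn at 0.

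No gene of this set passed the test. The model was limma on log2(value + 1), two-sided, with Benjamini-Hochberg adjustment over 14428 genes and a threshold of 0.05. Over all tested genes 0 were called (0%), and 524 genes (3.63%) had an unadjusted p under 0.05, a level reached by 0 of the 7 tested genes of the set. At that unadjusted level edgeR gave 495 genes, voom 546 and DESeq2 777 (of 26782 with a p), and each of these called 0 genes after adjustment. The adjusted p of each of the 7 genes was 0.997. Of the 7, 5 had a lower and 2 a higher mean log2 value in ethanol, beside 51.2% lower and 48.8% higher over all tested genes. Their median log2 fold change was -0.10, and that of all tested genes was -0.01. For each of the 9 genes the values of the groups overlapped, and over all tested genes the groups did not overlap for 335 (2.32%).

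**Figure D1:**
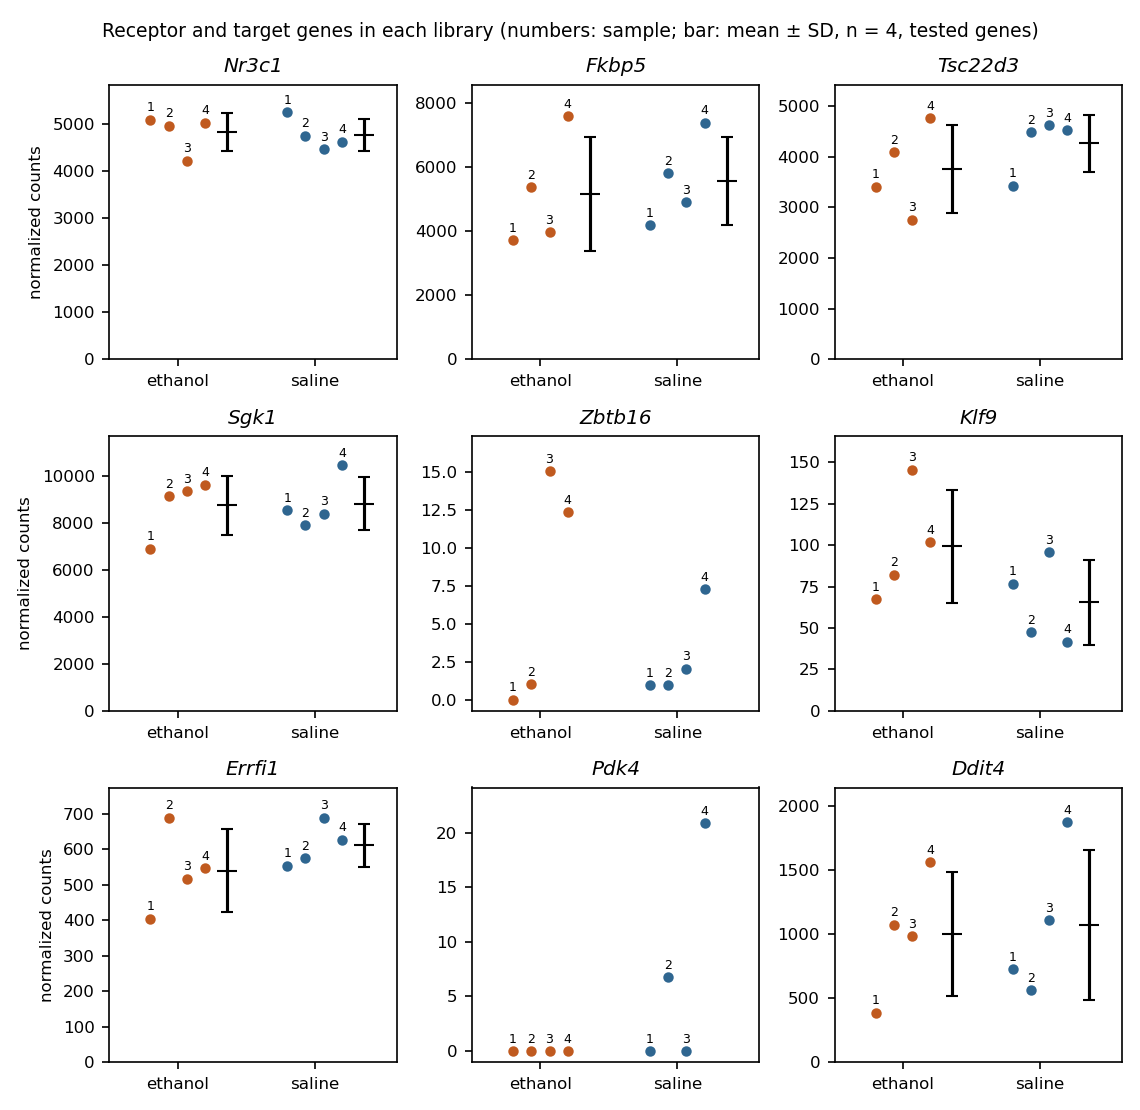
Normalized counts (y axis) of the 9 genes in each ethanol and saline library (x axis, 4 points each, numbered by sample), with the mean ± SD (n = 4) at the right of each group for the 7 tested genes. The groups overlap in every panel, and the libraries of sample 4 are the highest of their group for Fkbp5, Sgk1 and Ddit4.

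The receptor itself was expressed at a steady level. Nr3c1 had 5095, 4969.6, 4225 and 5032 normalized counts in ethanol 1 to 4, against 5259, 4756, 4473 and 4627 in saline 1 to 4. The saline values span nearly the same range, and ethanol 3 is the lowest of the 8 libraries. The means were 4830.2 ± 407 in ethanol and 4779 ± 341 in saline (SD, n = 4 each), and the fold of ethanol over saline was 1.01, between 0.900 and 1.13 at 95% confidence. Folds and their intervals come from the limma fit, on the log2(value + 1) scale, and so differ from the ratio of the printed means. The log2 fold change of 0.01 turned negative, to at most -0.02, when ethanol 1, ethanol 2, ethanol 4, saline 3 or saline 4 was left out. Its highest library was 1.24 times its lowest. By the SD of the log2 values over the 8 libraries, 32.8% of the 3450 genes that averaged 1000 normalized counts or more varied less than Nr3c1.

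The feedback genes Fkbp5 and Tsc22d3 were abundant and varied more between libraries than between groups. Fkbp5 encodes a co-chaperone that binds the receptor complex and lowers its affinity for hormone. It had 3716, 5375, 3969 and 7580.3 normalized counts in ethanol 1 to 4, against 4189.7, 5799.8, 4911 and 7384 in saline 1 to 4. In each group sample 1 was lowest and sample 4 highest, with samples 3 and 2 between them in that order. The means were 5160.1 ± 1771 in ethanol and 5571 ± 1377 in saline (SD, n = 4 each), and the fold was 0.909 (95% interval 0.690 to 1.20). The log2 fold change of -0.14 was 0.01 without saline 4 and -0.34 without ethanol 4. The highest library had 2.04 times the value of the lowest, and 99.5% of those 3450 genes varied less.

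Tsc22d3 encodes GILZ, a leucine zipper protein that inhibits NF-kB and AP-1 and carries part of the anti-inflammatory action of glucocorticoids. It had 3409.98, 4093, 2759 and 4761 normalized counts in ethanol 1 to 4, against 3431, 4483, 4625 and 4527 in saline 1 to 4. Ethanol spans the whole range, with its lowest value in ethanol 3 and its highest in ethanol 4, while 3 saline libraries lie close together and saline 1 lies below them. The means were 3756 ± 864 in ethanol and 4267 ± 561 in saline (SD, n = 4 each), and the fold was 0.869 (95% interval 0.711 to 1.06, limma adjusted p = 0.997, unadjusted p = 0.155). Its log2 fold change was -0.20 over all libraries, -0.07 within samples 1 and 2 and -0.34 within samples 3 and 4. It was -0.06 without ethanol 3 and -0.33 without ethanol 4, and 98.3% of the 3450 genes varied less over the 8 libraries. Neutrophils also express Fkbp5 and Tsc22d3, and the neutrophil marker share was highest in saline 1 (0.0933%), the saline library lowest in both genes, and in ethanol 4 (0.0681%), the ethanol library highest in both. Saline 4, the saline library highest in Fkbp5, had the lowest saline share (0.0176%), and the part of neutrophil RNA in either gene was not tested.

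**Figure D2:**
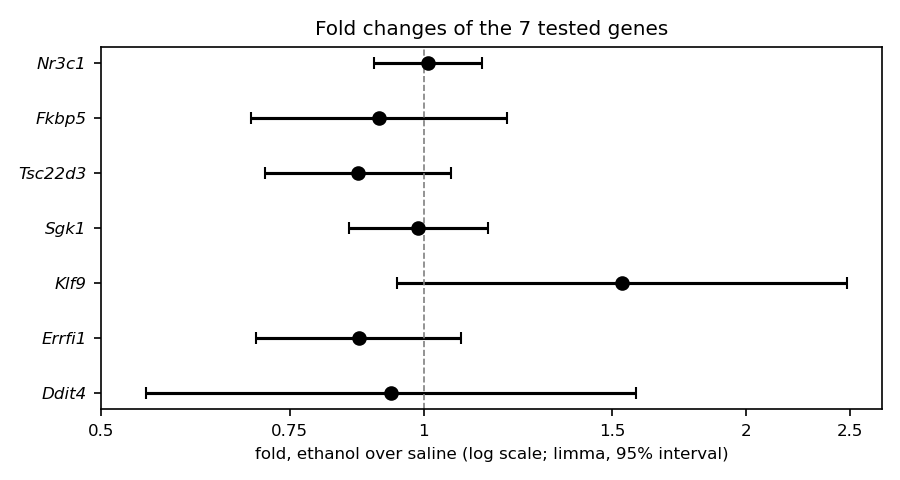
Fold change of ethanol over saline (x axis, log scale) for the 7 tested genes (y axis), with limma's 95% interval as bars and a dashed line at 1. Every interval holds 1, the narrowest is that of Nr3c1 (0.900 to 1.13), and the point farthest from 1 is Klf9 at 1.53.

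Sgk1, the kinase arm of the response, had the highest level per kilobase of the set and did not pass the test. It encodes a serine/threonine kinase related to AKT that regulates ion channels and FOXO factors. It had 6901, 9118, 9330.1 and 9615 normalized counts in ethanol 1 to 4, against 8523, 7904, 8383 and 10449 in saline 1 to 4. Ethanol 1 lies below all other libraries and saline 4 above them. The means were 8741 ± 1243 in ethanol and 8815 ± 1122 in saline (SD, n = 4 each), and the fold was 0.989 (95% interval 0.852 to 1.15). The log2 fold change of -0.02 was 0.09 without ethanol 1 and 0.07 without saline 4. Of the 3450 genes above, 84.1% varied less.

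Of the transcription factors, Klf9 had the highest fold of the set, and Zbtb16 was near the limit of detection. Klf9, a Kruppel-like factor induced by glucocorticoids and by thyroid hormone, had 67.4, 82.2, 145 and 102 normalized counts in ethanol 1 to 4, against 76.7, 47.3, 95.8 and 41.8 in saline 1 to 4. Ethanol 3 and ethanol 4 lie above every saline library, and ethanol 1 lies below saline 1 and saline 3. The means were 99.2 ± 33.9 in ethanol and 65.4 ± 25.4 in saline (SD, n = 4 each), and the fold was 1.53 (95% interval 0.945 to 2.48). The limma adjusted p was 0.997 and the unadjusted p 0.0800. The log2 fold change was 0.62 over all libraries, 0.30 within samples 1 and 2, 0.93 within samples 3 and 4, and 0.41 to 0.82 with 1 library left out. These values rest on 46 to 145 reads per library, and the interval leaves room for a fold of 2.48.

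Zbtb16, which encodes the zinc finger factor PLZF and is one of the strongest glucocorticoid-induced genes in many cell types, had 0, 1, 15 and 12 reads in ethanol 1 to 4, against 1, 1, 2 and 8 reads in saline 1 to 4. That is 28 reads in ethanol and 12 in saline, and 27 of the ethanol reads fall in 2 libraries (ethanol 3 and ethanol 4), beside 8 of the saline reads in saline 4. The 0 in ethanol 1 allows up to 3.26 normalized counts, the value of 3 reads, which covers counting error only. PLZF also marks innate-like lymphocytes, and the lymphocyte markers Cd3e, Cd3d and Ncr1 had no read in any library. The summed lymphocyte markers were 0.0105% in ethanol 3, 0.0110% in ethanol 4 and 0.0119% in saline 4, against at most 0.00965% in the other 5 libraries, and their part in the Zbtb16 reads was not tested.

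The genes acting on growth factor, mTOR and fuel signalling ranged between moderate levels and none. Ddit4 encodes REDD1, which holds back the mTOR complex and is also induced by hypoxia and by the integrated stress response. It had 388, 1073, 987 and 1562 normalized counts in ethanol 1 to 4, against 725, 562, 1111 and 1874 in saline 1 to 4. Sample 4 is highest in each group and ethanol 1 is the lowest of all. The means were 1002 ± 482 in ethanol and 1068 ± 585 in saline (SD, n = 4 each), and the fold was 0.933 (95% interval 0.551 to 1.58). The log2 fold change of -0.10 was 0.30 without ethanol 1, 0.22 without saline 4, -0.37 without ethanol 4 and -0.36 without saline 2. The highest library had 4.83 times the value of the lowest, and 99.9% of those 3450 genes varied less.

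Errfi1 encodes MIG6, a feedback inhibitor of the EGF receptor family. It had 404, 689, 517 and 547 normalized counts in ethanol 1 to 4, against 554, 575, 689 and 627 in saline 1 to 4. Of the ethanol libraries, 3 lie below the lowest saline library, and ethanol 2 lies level with the highest. The means were 539 ± 117 in ethanol and 611 ± 60.3 in saline (SD, n = 4 each), and the fold was 0.870 (95% interval 0.698 to 1.08, limma adjusted p = 0.997, unadjusted p = 0.200). The log2 fold change was -0.20 over all libraries, -0.10 within samples 1 and 2, -0.30 within samples 3 and 4 and -0.07 without ethanol 1. Egfr, Erbb2 and Erbb3, the receptors MIG6 acts on, each had a mean under 10 normalized counts.

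Pdk4 encodes a pyruvate dehydrogenase kinase that shifts cells from glucose to fatty acid oxidation and is strongly induced by glucocorticoids in liver and muscle. It had 0 reads in each of the 4 ethanol libraries, against 0, 7, 0 and 23 reads in saline 1 to 4. So 6 of the 8 libraries had none, and each of these allows up to 2.77 to 3.26 normalized counts. All 30 saline reads came from 2 libraries, in which Pdk4 reached 6.76 and 20.9 normalized counts. With cDNA amplified from a small amount of RNA and no molecular identifiers, these reads need not be independent molecules, and no test was made.

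Per kilobase of annotated exon the levels ordered the 9 genes as follows. Sgk1 stood first, with 1783 ± 254 normalized counts per kb in ethanol and 1798 ± 229 in saline (SD, n = 4 each), and its lowest library (1408) lay above the highest library of any other gene of the set. Tsc22d3 followed with 865 ± 199 in ethanol and 983 ± 129 in saline. Nr3c1 had 629 ± 52.9 in ethanol and 622 ± 44.3 in saline, Ddit4 had 571 ± 274 in ethanol and 609 ± 333 in saline, and Fkbp5 had 545 ± 187 in ethanol and 588 ± 145 in saline. These 3 neighbours do not differ beyond their spread, and the library ranges of Tsc22d3 and Nr3c1 (636 to 1097 and 550 to 684 per kb) also overlap. Errfi1 lay below them at 113 to 192 per kb over the 8 libraries, Klf9 at 8.68 to 30.2, and Zbtb16 and Pdk4 below 6 per kb.

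**Figure D3:**
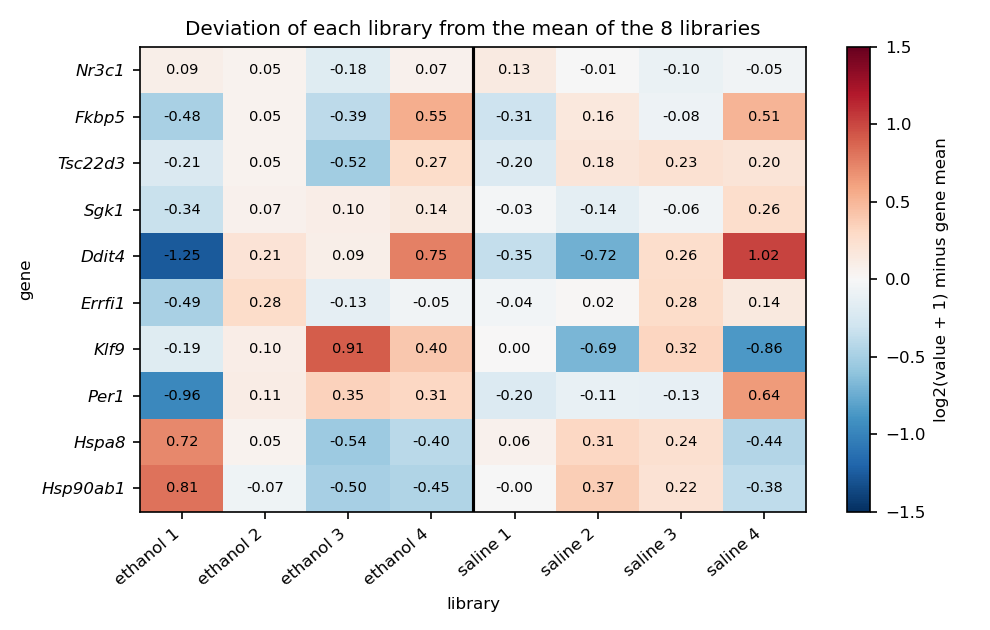
Deviation of each library (x axis, ethanol left of saline) from the gene's mean over the 8 libraries, in log2(value + 1), for the 7 tested genes and 3 other genes of the pathway (y axis). Ethanol 1 is negative for Fkbp5, Sgk1, Ddit4, Errfi1 and Per1 and positive for Hspa8 and Hsp90ab1, and saline 4 has the opposite signs for each of these 7 genes. Tsc22d3 and Nr3c1 also have opposite signs in these libraries, and Klf9 is negative in both (-0.19 in ethanol 1 and -0.86 in saline 4).

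Sgk1 and Ddit4 varied together over the libraries, within the groups as well as across them. Relations were computed for the 15 pairs among the 6 genes that averaged 100 normalized counts or more, over the 8 libraries and with exact permutation tests. Sgk1 and Ddit4 were the closest pair, with Pearson's r = 0.94 (exact permutation p = 0.000595, adjusted p = 0.00893 over 15 pairs) and Spearman's rho = 0.83 (exact permutation p = 0.0154, adjusted p = 0.115). Without the 2 libraries farthest from the median of Sgk1, r was 0.82, and r was 0.94 for deviations from the group means. Fkbp5 and Tsc22d3 had r = 0.81 (exact permutation p = 0.0151, adjusted p = 0.113) and rho = 0.83 (exact permutation p = 0.0154, adjusted p = 0.115), and r = 0.81 without the 2 farthest libraries. Fkbp5 and Ddit4 had r = 0.72 (exact permutation p = 0.0444, adjusted p = 0.222) and rho = 0.69 (exact permutation p = 0.0694, adjusted p = 0.260). For that pair r was 0.32 without the 2 farthest libraries, so it rests on them. In all, 12 of the 15 pairs had a positive r and 1 pair passed the adjusted threshold. The shares of such pairs over all pairs of genes were not computed, so these counts cannot be read as particular to this set. Samples 1 and 2 and samples 3 and 4, a division known from earlier work on these data, hold 4 libraries each, too few for a correlation of their own. Fold changes given within either set rest on those 4 libraries alone.

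**Figure D4:**
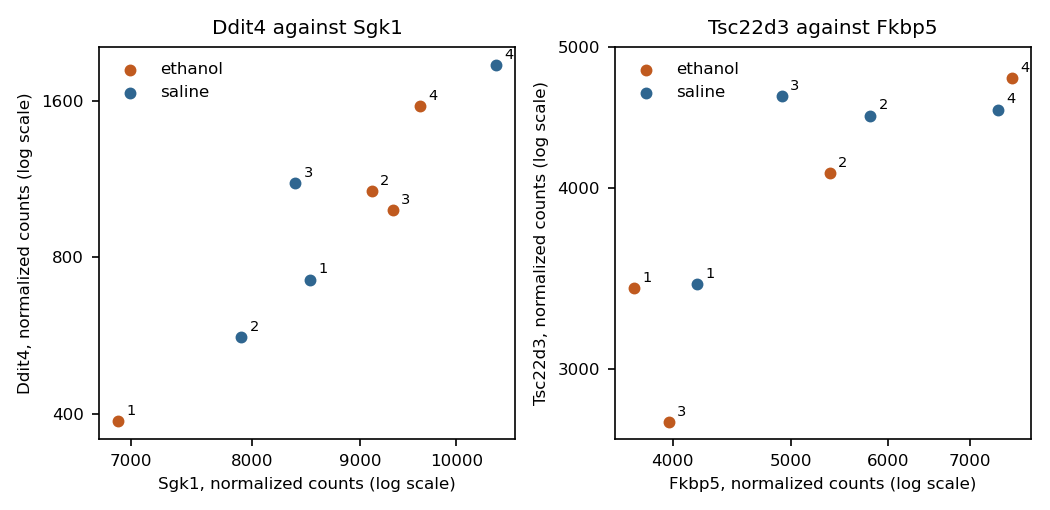
Normalized counts of Ddit4 against Sgk1 (left) and Tsc22d3 against Fkbp5 (right), on log axes, with 1 point per library numbered by sample and coloured by group. Ddit4 rises with Sgk1 between ethanol 1 and saline 4, with ethanol and saline libraries interleaved, and ethanol 3 has the lowest Tsc22d3 value (2759).

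The clock gene Per1 is another glucocorticoid target, and Hspa8 and Hsp90ab1 encode cytosolic chaperones that hold the receptor. Per1 had 388, 817, 965 and 939 normalized counts in ethanol 1 to 4, against 657, 702, 694 and 1177 in saline 1 to 4. It was lowest in ethanol 1 and highest in saline 4, as were Ddit4 and Sgk1. Per2, a clock gene of the same list of induced targets, had 464, 384, 239 and 353 in ethanol 1 to 4, against 374, 430.4, 228 and 283 in saline 1 to 4. It was highest in ethanol 1 and low in saline 4, the reverse of Per1 in those libraries. Hspa8 had 28692, 18062, 11947 and 13215 in ethanol 1 to 4, against 18160.4, 21642, 20539 and 12882 in saline 1 to 4. Hsp90ab1 had 8170.3, 4449, 3287 and 3411 in ethanol 1 to 4, against 4642, 6013, 5433 and 3576 in saline 1 to 4. Both chaperone genes were highest in ethanol 1 and low in saline 4, ethanol 3 and ethanol 4. Hsp90ab1 and Hspa8 have near-identical processed copies in the genome, so their counts are uncertain. The part of these differences between libraries in the values of Ddit4, Sgk1 and Fkbp5 was not tested.

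By the same measure over the 8 libraries, the genes whose pattern was most like that of Fkbp5 among 9787 genes averaging 100 normalized counts or more were Osbpl11 (r = 0.98), Natd1 (r = 0.95) and Zfp493 (r = 0.94). For Nr3c1 they were Slc25a28 (r = 0.97), Mrc2 (r = 0.96) and Akt2 (r = 0.95). For Tsc22d3 they were Cog8 (r = 0.98), 4930594C11Rik (r = 0.97) and Polr2b (r = 0.96). These are the highest of many values, given as a description without a test.

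The chaperones and coregulators that the receptor works with did not pass the test in any member. All 14 chaperone genes were tested, 4 had a higher and 10 a lower mean log2 value in ethanol, and their median log2 fold change was -0.04. Fkbp4, the co-chaperone that favours nuclear entry where Fkbp5 hinders it, had 2052 ± 394 normalized counts in ethanol and 1876 ± 174 in saline (SD, n = 4 each), and the fold was 1.08 (95% interval 0.905 to 1.29). Hsp90ab1 had a fold of 0.931 (0.676 to 1.28) and Hspa8 of 0.942 (0.695 to 1.28). Cdc37, a kinase co-chaperone, had a fold of 1.07 (0.943 to 1.21), and St13, an adaptor between HSP70 and HSP90, of 0.929 (0.801 to 1.08). Of 16 coregulator genes 15 were tested, 8 higher and 7 lower, with a median of 0.00. The coactivator gene Ncoa1 had a fold of 1.14 (0.966 to 1.34), Ncoa2 of 0.922 (0.785 to 1.08) and the Mediator subunit gene Med1 of 0.863 (0.743 to 1.00). The corepressor gene Ncor1 had a fold of 0.997 (0.881 to 1.13), and Nrip1, with the highest mean normalized count of the list, of 1.05 (0.959 to 1.16).

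Genes that set how much hormone reaches the receptor were mostly low. Of 9 genes of steroid supply and related receptors, 4 were tested and 0 passed. Nr3c2, the mineralocorticoid receptor gene, whose protein also binds corticosterone, had 293 ± 18.4 normalized counts in ethanol and 295 ± 46.7 in saline (SD, n = 4 each), and the fold was 1.00 (95% interval 0.798 to 1.26). Hsd11b1, which encodes the enzyme that regenerates active corticosterone inside cells, had 3.26, 23.1, 33.1 and 28.8 in ethanol 1 to 4, against 3.70, 7.72, 13.3 and 15.4 in saline 1 to 4. In 3 ethanol libraries it lay above every saline library, and in ethanol 1 below all of them, at 3 reads. Its fold was 1.81 (95% interval 0.613 to 5.38, limma adjusted p = 0.997, unadjusted p = 0.262). H6pd, which supplies NADPH to that enzyme, had a fold of 1.02 (0.869 to 1.19). Abcb1b, a drug and steroid efflux pump gene, had 511, 485, 443 and 423 in ethanol 1 to 4, against 628, 495, 569 and 637 in saline 1 to 4. The groups overlapped, since saline 2 lay below ethanol 1, and the fold was 0.802 (95% interval 0.665 to 0.967, limma unadjusted p = 0.0236, adjusted p = 0.997). Among the others, Hsd11b2, Abcb1a, Srd5a1 and Pgr had means under 10.

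**Figure D5:**
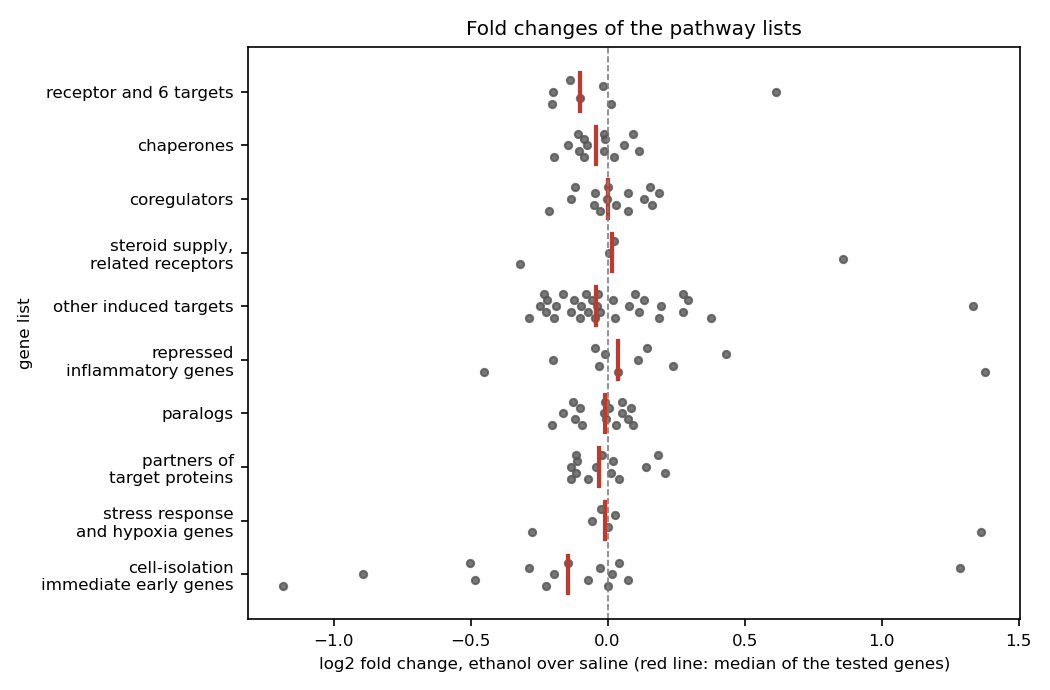
Log2 fold change of ethanol over saline (x axis) for each tested gene of the set and of 9 lists of related genes (y axis, 1 point per gene), with the median of each list as a red line. No gene passed the adjusted threshold, the medians lie between -0.15 (immediate early genes, 0.15 without saline 3) and 0.04, and points beyond 1 in either direction are genes with means under 100.

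Other genes that glucocorticoids induce had values on either side of 0. Of 35 such genes 32 were tested, 13 higher and 19 lower in ethanol, with a median log2 fold change of -0.04, and 0 passed. Txnip, a thioredoxin-binding protein gene that also answers glucose, had 4547, 4058, 4159 and 4257 normalized counts in ethanol 1 to 4, against 5381, 4935, 4649.6 and 4566 in saline 1 to 4. Each ethanol library lay below each saline library. The groups did not overlap for Txnip alone among the 32 tested genes of this list. They overlapped for every tested gene of the set and of the other related lists. Over all tested genes they did not overlap for 2.32%. The fold of Txnip was 0.873 (95% interval 0.784 to 0.971, limma unadjusted p = 0.0157, adjusted p = 0.997). Bcl6, a transcriptional repressor gene, had a fold of 1.14 (0.947 to 1.38) and the engulfment receptor gene Mertk, with the highest mean normalized count of the list, of 0.973 (0.894 to 1.06). Per1 had a fold of 0.934 (0.654 to 1.34).

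The inflammatory genes that the receptor is known to repress also did not pass, and the stress genes showed where single libraries differ. Of 17 repressed genes 11 were tested, 6 higher and 5 lower, with a median of 0.04. Tnf had the highest fold of them, at 30.2 ± 16.7 normalized counts in ethanol and 11.1 ± 6.48 in saline (SD, n = 4 each), and the groups overlapped, since saline 1 (19.4) lay above ethanol 1 (18.5) and ethanol 2 (14.0). Its fold was 2.60 (95% interval 1.06 to 6.35, limma unadjusted p = 0.0380, adjusted p = 0.997). Il1b had a fold of 0.731 (0.361 to 1.48), and Icam1, a leukocyte adhesion molecule gene, of 0.969 (0.859 to 1.09). Of 16 immediate early genes of cell isolation 15 were tested, 5 higher and 10 lower, with a median of -0.15. That median was 0.15 without saline 3 and 0.0119 within samples 1 and 2. With all libraries kept it was -0.05 with a filter at an average of 50 and -0.07 in edgeR. Its direction thus turned without saline 3, and its size changed with the filter and the method as well. Fos had 181 normalized counts in saline 3 and at most 4.01 in the other 7 libraries, and Dusp1 had 503 in saline 3 and at most 156 elsewhere. The fold was 0.538 (0.0450 to 6.44) for Fos and 0.820 (0.418 to 1.61) for Dusp1. Among the saline libraries, saline 3 was highest for Tsc22d3 (4625), Klf9 (95.8) and Errfi1 (689) and lowest for Nr3c1 (4473). For Fkbp5, Sgk1 and Ddit4 it was neither the highest nor the lowest of its group. Over all 8 libraries it was an extreme only for Errfi1, where it lay highest, level with ethanol 2. The part of what sets saline 3 apart in these values was not tested. Nr4a1 had a fold of 2.44 (0.869 to 6.85), Zfp36 of 0.857 (0.723 to 1.01) and Junb of 1.03 (0.893 to 1.19).

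Relatives and partners of the target proteins also held no gene that passed. Of 19 paralogs 16 were tested, 7 higher and 9 lower, with a median of -0.01, and 0 passed. Tsc22d2, a relative of Tsc22d3, had a fold of 0.868 (0.748 to 1.01), Fkbp2 of 1.07 (0.911 to 1.25) and Klf3 of 1.05 (0.922 to 1.20). Of 18 partner genes 14 were tested, 6 higher and 8 lower, with a median of -0.03. Mtor, the kinase held back through REDD1, had a fold of 1.14 (0.940 to 1.37), Pdhb, a subunit of the complex that PDK4 inhibits, of 0.911 (0.802 to 1.03), and Akt1 of 0.922 (0.816 to 1.04). Of 8 genes of the integrated stress response and hypoxia, pathways that also act on Ddit4, 6 were tested, 3 higher and 3 lower, with a median of -0.01. Ppp1r15a, a phosphatase subunit gene that this stress response induces, had a fold of 0.827 (0.662 to 1.03), the hypoxia factor gene Hif1a of 0.984 (0.856 to 1.13), and Asns, the asparagine synthetase gene, at 18.0 ± 9.47 in ethanol and 11.3 ± 15.3 in saline (SD, n = 4 each), of 2.57 (0.699 to 9.45).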

How the data were processed

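Per the labels' protocols, FACS-isolated microglial RNA was sequenced from cDNA amplified from 500 pg of total RNA, with 150 pg of that cDNA in each NexteraXT library, in paired reads of 150 nt. The tools named in the submitters' processing notes are R 4.2.2, DESeq2, Salmon 1.5.2, featureCounts 2.0.1 (with Subread), STAR 2.7.9a and bcl2fastq 2.19.1, beside the genome build GRCm39. What each tool did, its parameters and the annotation are not given in those notes as used here. The authors deposited 1 gene table, whose signal values are named as DESeq2-normalized counts: each library's counts are scaled by its own size factor. Whole reads were recovered, since 100% of non-zero values were whole multiples of the library's smallest value within 1e-06. NexteraXT libraries do not mark strand, and no exon of the 9 genes overlaps another gene's exon in GENCODE M21 (GRCm38), the source of exon lengths.

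The tests used limma 3.58.1 (trend, R 4.3.3) on log2(value + 1) for genes averaging 10 or more, which understates changes of low genes. Samples were grouped by their titles. The 9 genes, the related lists, the division of samples 1 and 2 from samples 3 and 4 and the tests were chosen with earlier results of these data known. From each related list the gene with the highest mean value is named, with the gene of lowest unadjusted p among those higher and among those lower, besides Nr3c2, Hsd11b1, Per1, Dusp1, Hsp90ab1, Fkbp4, Ncoa2, Ncor1 and Fos. Values per library of Per1, Per2, Hspa8, Hsp90ab1, Abcb1b and Txnip were chosen for print after they were seen. Alternatives were pseudocounts of 0.5 and 5, no filter, a filter at an average of 50, quantile normalization, a block for the sample number, a covariate for the library number, the division as a term, fits within each set, edgeR 4.0.16, voom and DESeq2 1.42.0, these 3 on recovered reads, and leaving out each library. The fit was tested on simulated data.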

Additional observations from a re-analysis of the deposited data

Results flagged for a closer look

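In 2 of 17 sets of 4 libraries (each gene of the set in each treatment, without Pdk4 in ethanol, where every library was at 0) a single library lay apart from the other 3 by Dixon's criterion, which chance gives in about 1 of 20. Nr3c1 was low in ethanol 3, at 4225 normalized counts, where the other ethanol libraries had 4969.6 to 5095. Tsc22d3 was low in saline 1, at 3431 normalized counts, where the other saline libraries had 4483 to 4625. Saline 1 also had the highest neutrophil marker share of the 8 libraries (0.0933%), whose part in the Tsc22d3 value was not tested.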

How the results depend on the processing

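In each of the 21 alternative settings 0 genes were called, and 376 to 999 had an unadjusted p under 0.05. The number of tested genes differed as well: the 376 were of 10919 (filter at an average of 50) and the 999 of 26812 (no filter). The log2 fold changes of Tsc22d3 (-0.34 to -0.06), Errfi1 (-0.33 to -0.07) and Klf9 (0.30 to 0.93) kept their direction in all of them. Near 0, directions turned: Sgk1 was 0.0538 and Ddit4 0.18 with the library number as a covariate, Ddit4 was 0.0158 within samples 1 and 2 and Sgk1 0.0172 within samples 3 and 4, and the cause was not tested. With 1 library left out, the log2 fold change ran from -0.0169 to 0.0770 for Nr3c1, -0.34 to 0.00821 for Fkbp5, -0.0658 to 0.0936 for Sgk1 and -0.37 to 0.30 for Ddit4. The smallest adjusted p of any of the 7 genes in any setting was 0.917. The smallest limma unadjusted p over the settings was 0.0193 for Tsc22d3, 0.0284 for Klf9, 0.0417 for Errfi1 and 0.0431 for Fkbp5. For Nr3c1, Sgk1 and Ddit4 it was 0.299, 0.290 and 0.313. These are the lowest of many settings and are not corrected for that choice. Of the alternatives for the list medians, added after seeing the data, 187 moved by less than 1 SD of the libraries' mean over the list and 2 by more, to 0.09 for the coregulators within samples 1 and 2 and to -0.06 for the paralogs without ethanol 4. Medians changed sign between settings, also that of the immediate early genes, which was -0.15 over all libraries and 0.15 without saline 3, and they ran from -0.27 to 0.21 over all lists and settings.

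Samples that share a number deviated together only weakly, with correlations over tested genes of 0.03, 0.06, 0.08 and 0.01 for samples 1 to 4. Ethanol 1 correlated best with saline 2 (0.14). The sample numbers, which the titles do not call pairs, were not taken as pairs. Library names carry another number: 165 for ethanol 1, ethanol 2 and saline 2, and 163 for ethanol 3 and saline 3. It is 164 for ethanol 4, saline 1 and saline 4, so it is not balanced between the groups. What it stands for is not given in the labels used here, and its part in these correlations was not tested. With the sample number as a replicate block, 0 genes were called and 645 had an unadjusted p under 0.05. The SE of each of the 7 tested genes of the set was lower with the block. For Fkbp5 it was 0.06 against 0.19 without the block, and for Ddit4 0.21 against 0.36. The limma unadjusted p with the block was 0.0547 for Fkbp5, 0.0633 for Klf9 and 0.0858 for Tsc22d3, each with an adjusted p of 0.987. For the others of the set the unadjusted p was 0.163 or more. The intervals of Klf9 and Hsd11b1 reach 2.48 and 5.38-fold, and low counts left Zbtb16 and Pdk4 untested.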
